A study of Mus musculus with 3 samples.

Results

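The subject here is marrow endothelium that carries both Ackr1, an atypical chemokine receptor, and Selp, P-selectin, on the same barcode of a single-cell RNA library. Members were chosen from the raw counts of the deposited matrices, which are UMIs, or molecular tags that mark each captured transcript once. A member had at least 500 genes, at most 10% mitochondrial UMIs, at least 5 UMIs of Cdh5, Pecam1, Eng and Kdr together with at least 1 of Cdh5, fewer than 50 of Cxcl12, at least 2 of Ackr1 and of Selp each, fewer than 10 of Cxcl9 and fewer than 2 of Mki67 and Top2a together. This left 3337 double-positive barcodes among 8423 endothelial and 12790 filtered barcodes, with 454 in the VC, 1405 in the FLOX and 1478 in the WT library. They were set against 867 endothelial barcodes with 0 UMIs of both genes, of which 211 were in VC, 435 in FLOX and 221 in WT.

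Ackr1 binds many inflammatory chemokines without signalling through G proteins and is known as a marker of venular endothelium. P-selectin and E-selectin (Sele) are the endothelial selectins on which leukocytes roll before they adhere. In bone marrow the venous side is formed largely by sinusoids, thin-walled wide vessels that carry scavenger receptors such as Stab2 and through which blood cells enter and leave.

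The study profiled bone marrow niche cells of mice in which a Cre recombinase was directed at floxed Vegfc, the gene of a VEGF receptor 3 ligand, and controls. VC mice carried Cdh5-CreERT2, a tamoxifen-dependent Cre under the promoter of VE-cadherin that acts in endothelium, together with Vegfc flox/flox. FLOX mice were Vegfc flox/flox with no Cre named, and WT mice were wild type. All were C57Bl/6JCrl and all received tamoxifen by gavage, and age, number of mice and sort gates are not given in the labels. Flushed tibial marrow was digested and stained for CD45, Ter119 and LepR after intravenous antibody to VE-cadherin, and libraries were made with the 10x 3' kit v3.1.

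Each genotype was 1 library, so differences between VC, FLOX and WT have no replicate check and no p-value. Contrasts between classes of barcodes were tested over the 3 libraries, which also differ in genotype. The files held 37361779 UMIs (VC), 61758462 UMIs (FLOX) and 56853574 UMIs (WT). Double-positive barcodes had a median of 10521 (VC), 9167 (FLOX) and 12133 UMIs (WT), against 7185 (VC), 5781 (FLOX) and 7758 UMIs (WT) in barcodes with neither gene. The comparison class was therefore shallower in every library. Libraries shared 5 (VC and FLOX), 6 (VC and WT) and 10 (FLOX and WT) barcode sequences, and 0 of these were double-positive in both.

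Of the 5 genes that name the class, Ackr1, Selp, Sele and Rgs4 lie on chromosome 1 and Clca3a1 on chromosome 3. Rgs4 encodes a regulator of G-protein signalling, and Clca3a1 a secreted protein of the calcium-activated chloride channel regulator family. Their promoters are shown because the 5 genes were high in the same barcodes. The sequences are RefSeq's, build GRCm38.p6, from 250 bases before to 50 bases after each gene's start, on the gene's strand. They span chr1:173333454-173333753 on the minus strand (Ackr1), chr1:164115014-164115313 on the plus strand (Selp), chr1:164047984-164048283 on the plus strand (Sele), chr1:169747593-169747892 on the minus strand (Rgs4) and chr3:144760928-144761227 on the minus strand (Clca3a1). Capitals mark matches on either strand to an ETS motif (CAGGAAG), the GATA motif (GATAAG) and an AP-1 motif (TGANTCA). The kappaB motif was searched as well.
Ackr1: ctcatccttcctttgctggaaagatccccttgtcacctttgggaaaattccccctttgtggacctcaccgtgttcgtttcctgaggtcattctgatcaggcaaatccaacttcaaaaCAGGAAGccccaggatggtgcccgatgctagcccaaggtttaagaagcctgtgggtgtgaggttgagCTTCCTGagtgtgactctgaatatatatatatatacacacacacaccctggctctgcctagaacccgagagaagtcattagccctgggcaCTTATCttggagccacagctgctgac
Selp: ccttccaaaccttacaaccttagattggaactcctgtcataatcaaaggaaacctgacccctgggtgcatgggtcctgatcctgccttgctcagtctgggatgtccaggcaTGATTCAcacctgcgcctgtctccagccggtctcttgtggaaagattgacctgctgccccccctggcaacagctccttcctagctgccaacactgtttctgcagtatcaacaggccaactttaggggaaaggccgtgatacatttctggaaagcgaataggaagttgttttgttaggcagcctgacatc
Sele: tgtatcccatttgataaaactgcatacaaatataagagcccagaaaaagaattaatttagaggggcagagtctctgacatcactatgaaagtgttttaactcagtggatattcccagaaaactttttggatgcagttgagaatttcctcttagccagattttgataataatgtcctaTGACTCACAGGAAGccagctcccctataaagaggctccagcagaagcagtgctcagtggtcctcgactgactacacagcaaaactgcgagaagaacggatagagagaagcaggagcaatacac
Rgs4: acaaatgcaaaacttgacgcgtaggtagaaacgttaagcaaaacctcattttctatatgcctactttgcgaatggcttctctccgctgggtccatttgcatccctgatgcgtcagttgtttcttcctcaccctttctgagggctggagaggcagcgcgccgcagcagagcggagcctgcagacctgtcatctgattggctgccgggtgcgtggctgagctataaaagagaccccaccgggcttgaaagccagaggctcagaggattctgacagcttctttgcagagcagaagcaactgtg
Clca3a1: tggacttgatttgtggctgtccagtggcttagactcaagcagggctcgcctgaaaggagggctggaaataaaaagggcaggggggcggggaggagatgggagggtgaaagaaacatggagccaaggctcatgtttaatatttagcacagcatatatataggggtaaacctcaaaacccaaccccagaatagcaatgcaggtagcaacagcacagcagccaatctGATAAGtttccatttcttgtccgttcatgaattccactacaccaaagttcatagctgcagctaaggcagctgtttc
The Ackr1 window held the ETS motif at bases 118 and 185 and the GATA motif at base 275, which is 24 bases after the start. Sele held an AP-1 match at base 178 that adjoins an ETS match at base 185. Selp held an AP-1 match at base 112, Clca3a1 a GATA match at base 225, and no match was found for Rgs4 or for kappaB in these windows. Among 32851 promoters of the same length, 13.3% held the ETS, 7.44% the GATA, 7.81% the AP-1 and 4.51% the kappaB motif. A match describes letters and is not a binding site.

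Ackr1 and Selp were fixed by the choice of members and are given as description. Ackr1 stood at 665 (VC), 499 (FLOX) and 392 CPM (WT) in double-positive barcodes, where CPM are a gene's UMIs, summed over a class in a library and scaled to 1 common total of UMIs. Selp stood at 569 (VC), 516 (FLOX) and 583 CPM (WT). The 2 genes ordered the libraries differently, with Ackr1 highest in VC and Selp highest in WT. A member held a median of 6 (VC), 4 (FLOX) and 4 Ackr1 UMIs (WT) and of 5 (VC), 4 (FLOX) and 7 Selp UMIs (WT), and up to 51 Ackr1 and 89 Selp UMIs in VC. Members at exactly the limit of 2 UMIs made up 11.5% (VC), 21.9% (FLOX) and 21.2% (WT) for Ackr1.

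The other marker genes given for the class were high in it. Sele, which captures rolling leukocytes, stood at 932 (VC), 1037 (FLOX) and 869.6 CPM (WT) in double-positive barcodes, against 143 (VC), 201 (FLOX) and 143 CPM (WT) in barcodes with neither gene. The levels did not overlap, and the ratio between the classes was 5.17 to 6.51 across the libraries. Rgs4 stood at 976 (VC), 755 (FLOX) and 643 CPM (WT), against 188 (VC), 185 (FLOX) and 132 CPM (WT). Clca3a1 stood at 1117 (VC), 862 (FLOX) and 659 CPM (WT), against 271 (VC), 205 (FLOX) and 178 CPM (WT). Within double-positive barcodes both ran highest in VC and lowest in WT. Only 5.73% (VC), 3.13% (FLOX) and 3.38% of members (WT) had no Sele UMI. After every barcode was thinned to 5000 UMIs, 89.8% (VC), 93.3% (FLOX) and 90.1% of members (WT) held a Sele UMI, against 23.8% (VC), 26.8% (FLOX) and 30.8% (WT) of barcodes with neither gene. Unthinned, the members' shares were 94.3% (VC), 96.9% (FLOX) and 96.6% (WT). Thinning left out 14 (VC), 133 (FLOX) and 30 members (WT) with fewer UMIs and 51 (VC), 181 (FLOX) and 75 (WT) of the others. Stromal barcodes, which should lack Sele and had medians of 13491 (VC), 11303 (FLOX) and 10507.5 UMIs (WT), held a Sele UMI in 0.466% (VC), 0.707% (FLOX) and 0.971% (WT) after thinning.

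**Figure D1:**
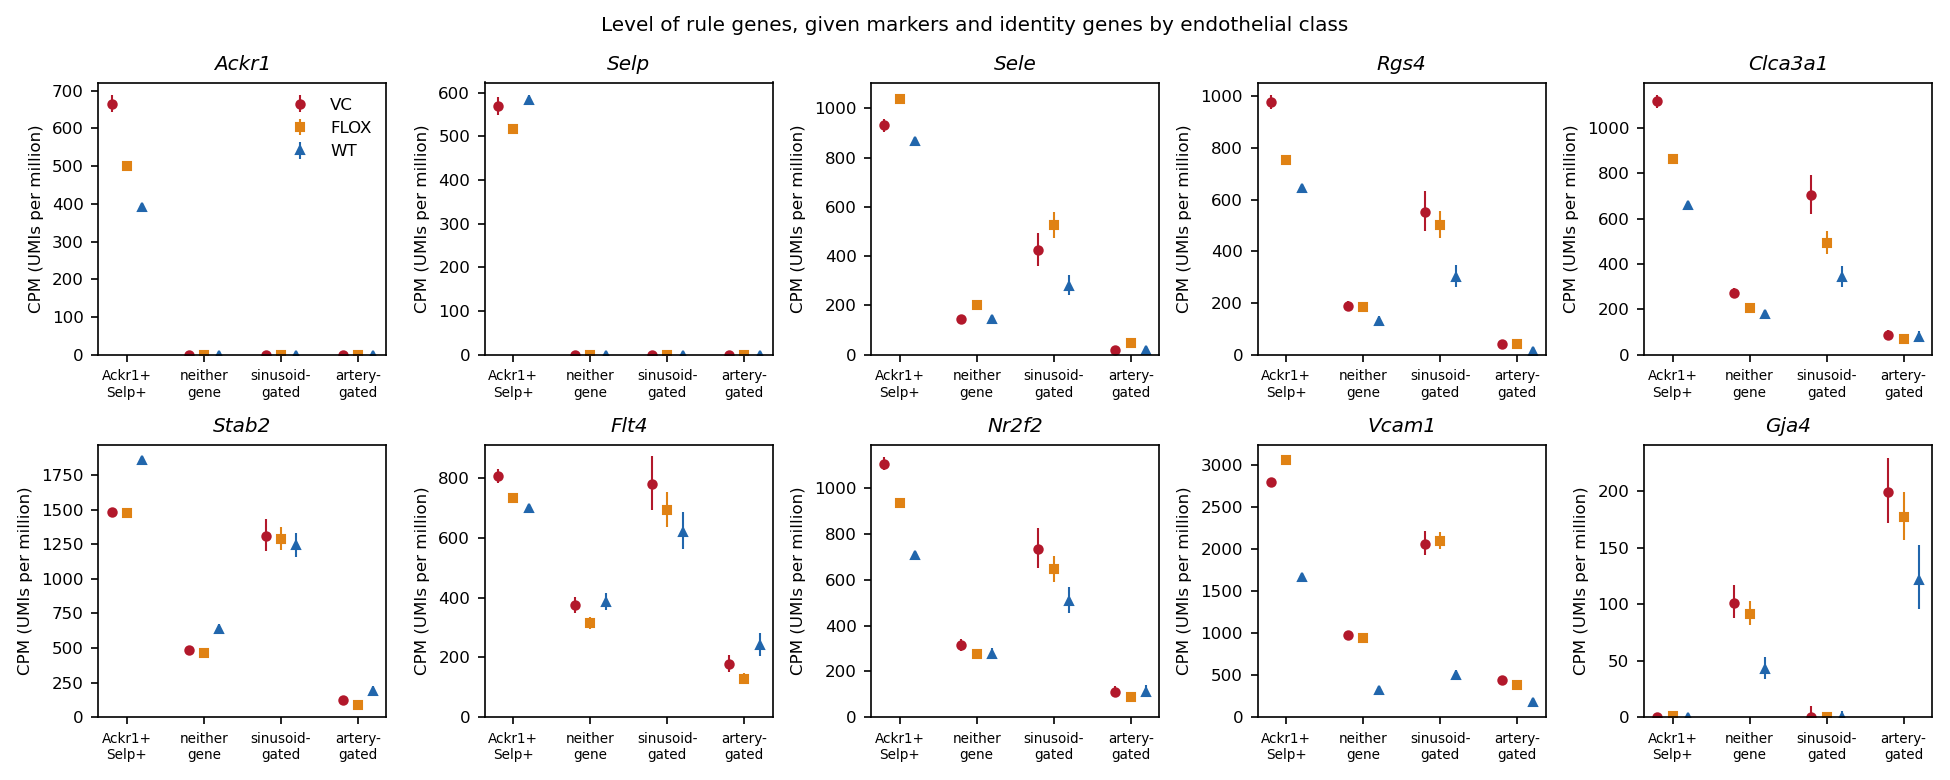
Each panel plots the level of 1 gene (CPM, y axis from 0) in 4 endothelial classes (x axis), with 1 point per library (VC circles, FLOX squares, WT triangles) and exact Poisson intervals at 95% that cover counting error only. Sele, Rgs4 and Clca3a1 were highest in double-positive barcodes in all 3 libraries, Stab2 and Flt4 were about as high as in sinusoid-gated barcodes, and Gja4 was near 0; Ackr1, Selp, and Gja4 in 2 classes, are set by the gates.

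The label given for these barcodes, venular-like, was checked against genes that separate vessel types. By those genes they resembled sinusoid-gated barcodes more than artery-gated ones, and no capillary or venule class was gated. Further classes for comparison were gated among barcodes with neither gene. Sinusoid-gated barcodes (52 in VC, 145 in FLOX, 95 in WT) had at least 3 UMIs of Stab2 and Flt4 together and 0 of Gja4, Gja5, Sox17, Bmx, Hey1 and Sema3g, and artery-gated barcodes (82 in VC, 170 in FLOX, 48 in WT) had at least 3 UMIs of those 6 arterial genes. Stab2, the hyaluronan scavenger receptor of sinusoids, stood at 1479 (VC), 1472 (FLOX) and 1857 CPM (WT) in double-positive barcodes, against 1309.7 (VC), 1288 (FLOX) and 1241 CPM (WT) in sinusoid-gated ones, although Stab2 was used to gate only the second. Flt4, VEGF receptor 3, stood at 806 (VC), 733 (FLOX) and 699 CPM (WT), against 779 (VC), 693 (FLOX) and 620.3 CPM (WT). Double-positive barcodes thus carried at least as much Stab2 and Flt4 as the sinusoid gate in every library, at ratios of 1.13 to 1.5 and 1.04 to 1.13. The given markers were nevertheless higher than in the sinusoid gate, at ratios of 1.98 to 3.09 for Sele, 1.5 to 2.13 for Rgs4 and 1.59 to 1.93 for Clca3a1. Vwf, the clotting protein stored by most venous endothelium, stood at 3.88 (VC), 2.87 (FLOX) and 0.621 CPM (WT). After thinning, a Vwf UMI was found in 1.82% (VC), 1.10% (FLOX) and 0.552% of members (WT), against 1.63% (VC), 2.53% (FLOX) and 1.94% of stromal barcodes (WT) and so stood at or near the level of background. Its CPM in members over barcodes with neither gene gave ratios of 1.47 (VC), 0.297 (FLOX) and 0.394 (WT). Over artery-gated barcodes the ratios were 0.740 (VC) and 0.150 (FLOX), with no Vwf UMI in artery-gated WT barcodes. Vwf was thus low in those classes too, and its low level in members does not show vessel type here. Of lymphatic genes, Prox1, the transcription factor of lymphatic identity, stood at 2.95 (VC), 6.47 (FLOX) and 9.40 CPM (WT) and Lyve1, a hyaluronan receptor, at 0 (VC), 0.131 (FLOX) and 0.0955 CPM (WT). Because of their Stab2 and Flt4 levels, the barcodes are called Ackr1+Selp+ or double-positive endothelium here and not venules.

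Levels on both sides of the limit of 2 UMIs are given as description. Where the lesser of Ackr1 and Selp had 1 UMI, just outside the limit, Sele stood at 1017 (VC), 948 (FLOX) and 666 CPM (WT). Just inside, at 2 UMIs, it stood at 962 (VC), 1041 (FLOX) and 803 CPM (WT), and at 5 UMIs or more at 970 (VC), 1056 (FLOX) and 900 CPM (WT). With 0 UMIs of both genes under the same other limits it stood at 89.7 (VC), 223 (FLOX) and 141 CPM (WT). Sele thus differed more between 0 UMIs of both genes and 1 UMI of the lesser than across the limit. Barcodes with 1 of the genes at 0 are given with the single-gene classes further on, and their Sele levels were also far above those with neither gene. Stab2 had the same shape, with 1217 (VC), 1471 (FLOX) and 1785 CPM (WT) at 1 UMI and 1233 (VC), 1440 (FLOX) and 1891 CPM (WT) at 2 UMIs, against 285 (VC), 507 (FLOX) and 662 CPM (WT) at 0. Cd34, a sialomucin of arterial and capillary endothelium, ran the other way and also differed across the limit, with 30.7 (VC), 19.4 (FLOX) and 15.2 CPM (WT) at 2 UMIs and 78.4 (VC), 32.0 (FLOX) and 40.5 CPM (WT) at 1 UMI, against 394 (VC), 381 (FLOX) and 339 CPM (WT) at 0. Depth moved with these classes: the median was 8643 (VC), 7600 (FLOX) and 10249 UMIs (WT) at 2 UMIs, and 8822 (VC), 6925 (FLOX) and 9650 UMIs (WT) at 1 UMI. At 5 or more it was 12993 (VC), 12791 (FLOX) and 14818 UMIs (WT).

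**Figure D2:**
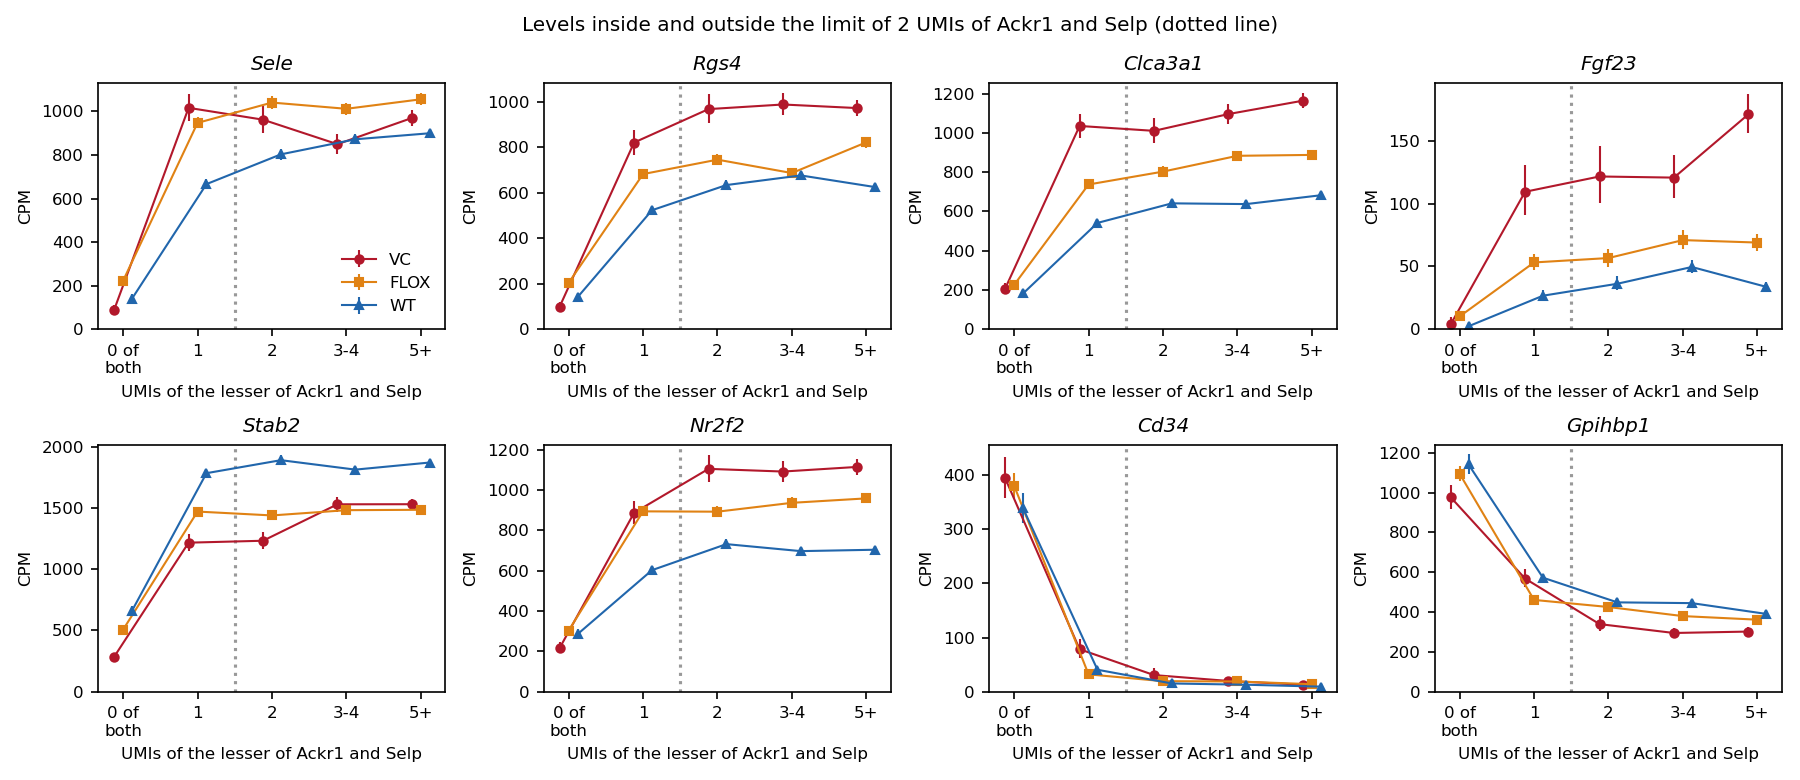
Each panel plots the level of 1 gene (CPM, y axis from 0) against the UMIs of the lesser of Ackr1 and Selp (x axis, where 0 holds barcodes with neither gene), for the VC, FLOX and WT libraries, with exact Poisson intervals at 95%; the dotted line marks the limit of 2 UMIs. Sele, Rgs4, Clca3a1, Stab2 and Nr2f2 were higher, and Cd34 lower, at 1 UMI than with neither gene, and Cd34 was lower again inside the limit, at 30.7 (VC), 19.4 (FLOX) and 15.2 CPM (WT) at 2 UMIs and 78.4 (VC), 32.0 (FLOX) and 40.5 CPM (WT) at 1 UMI.

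Double-positive endothelium was first set against all endothelium with neither gene. A gene was called when edgeR's quasi-likelihood test, adjusted by Benjamini-Hochberg over all genes tested, gave a p under 0.05, the difference was at least 1.5-fold, and CPM moved the same way in 3 of 3 libraries. Of 11742 genes, 859 rose (7.32%) and 1234 fell (10.5%). The comparison class was mixed, since 300 of its 867 barcodes were artery-gated and 292 sinusoid-gated, and a gate on 2 genes also picks what travels with them. The rule genes and given markers were not tested.

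Among genes that rose most were a hormone, an adhesion receptor and a junction protein. Fgf23, the hormone of phosphate balance that is mainly made by osteocytes, stood at 147 (VC), 66.1 (FLOX) and 39.4 CPM (WT) in double-positive barcodes, against 5.81 (VC), 9.04 (FLOX) and 2.1 CPM (WT) with neither gene (log2 fold change 3.75, SE 0.26, adjusted p = 3.3e-05). It was higher in double-positive barcodes of every library, and highest in VC. Adgrg6, an adhesion G-protein-coupled receptor, stood at 648 (VC), 529 (FLOX) and 613 CPM (WT), against 102 (VC), 81.3 (FLOX) and 101 CPM (WT) (log2 fold change 2.71, SE 0.08, adjusted p = 6.2e-07). Cxadr, the coxsackievirus and adenovirus receptor at cell junctions, stood at 384 (VC), 388 (FLOX) and 563 CPM (WT), against 63.4 (VC), 73.3 (FLOX) and 97.6 CPM (WT) (log2 fold change 2.56, SE 0.08, adjusted p = 7.1e-07). The 3 libraries of each class lay apart from those of the other for these genes. Dclk1, a microtubule-binding kinase, stood at 271 (VC), 299.8 (FLOX) and 281 CPM (WT), against 39.1 (VC), 52.9 (FLOX) and 55.1 CPM (WT). Also among the 12 highest were Mum1l1 (log2 fold change 2.68), the protocadherin Pcdh7 (2.55), the complement protease Cfd (2.51), the homeobox factor Meis2 (2.39), the monocarboxylate transporter family member Slc16a9 (2.28), the matricellular protein Ctgf (2.26), the endocytic adaptor Ston2 (2.20) and the proteoglycan Prelp (2.12). Cfd differed least evenly, with 52.1 (VC), 207 (FLOX) and 171 CPM (WT), against 35.9 (VC), 15.5 (FLOX) and 22.6 CPM (WT) (adjusted p = 0.0068).

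Of the 12 genes that fell most, Gja4 and Stmn2 belong to the arterial list. Gja4, connexin 37 of arterial gap junctions, stood at 0.554 (VC), 0.915 (FLOX) and 0.191 CPM (WT) in double-positive barcodes, against 101 (VC), 91.7 (FLOX) and 42.5 CPM (WT) (log2 fold change -6.99, SE 0.20, adjusted p = 6.2e-07). Fbln2, a fibulin of the vessel matrix, stood at 6.09 (VC), 3.66 (FLOX) and 2.29 CPM (WT), against 279.9 (VC), 351 (FLOX) and 140.1 CPM (WT) (log2 fold change -6.01, SE 0.18, adjusted p = 6.2e-07). For both, every double-positive library lay far below every library of the other class. Stmn2 (-6.94), Tcf15 (-6.00), Clic5 (-5.97), Nebl (-5.88) and Rbp7 (-5.08) fell as well, although Stmn2 had only 1.05 CPM in WT barcodes with neither gene. Cenpf (-5.91), Hist1h3c (-5.84) and Hist1h1b (-5.34), genes of dividing cells, fell where the rule itself bars Mki67 and Top2a from members only. Elane (-5.19) and Ctsg (-5.13), proteases of myeloid granules, stood at 0.923 (VC), 3.20 (FLOX) and 4.82 CPM (WT) and 0.739 (VC), 1.44 (FLOX) and 2.05 CPM (WT), against 2.64 (VC), 89.1 (FLOX) and 262 CPM (WT) and 1.06 (VC), 35.5 (FLOX) and 118 CPM (WT).

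Vessel-type lists moved in opposite directions. Of 13 tested sinusoidal genes 12 rose and the other was not called, with a median log2 fold change of 1.12, against -0.01 over all genes. They were led by Adamts5, a matrix protease (1.70, adjusted p = 9.4e-06), Il6st, the shared receptor chain of interleukin-6 cytokines (1.67), Stab2 (1.66, adjusted p = 2.7e-06) and the lysosomal protease Ctsl (1.48). Adamts5 stood at 4141 (VC), 3260.0 (FLOX) and 3109 CPM (WT), against 1244 (VC), 933 (FLOX) and 1179 CPM (WT). The scavenger receptors Mrc1 (1.27) and Stab1 (0.81) and the orphan receptor Gpr182 (1.04) were also called. Of 21 tested arterial genes 12 fell and the others were not called, with a median of -3.01, led by Gja4, Stmn2, the Notch target Hey1 (-5.74) and the semaphorin Sema3g (-4.58). Efnb2, the ephrin of arterial identity, stood at 20.7 (VC), 22.5 (FLOX) and 22.5 CPM (WT), against 249.8 (VC), 284 (FLOX) and 241 CPM (WT) (log2 fold change -3.50, SE 0.09, adjusted p = 6.0e-07). Of 12 capillary genes 3 rose, among them the water channel Aqp1 (1.99) and lipoprotein lipase (Lpl, 1.51), and 4 fell, among them Rgcc (-2.22) and Gpihbp1 (-1.39), which anchors lipoprotein lipase on the vessel wall. When the comparison barcodes were drawn to the depth of the members, 12 sinusoidal genes still rose and 13 arterial genes fell.

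Genes that mark veins were split. Of 18 tested, 8 rose and 4 fell, with a median of 0.21. Nr2f2, the transcription factor of venous identity, stood at 1106 (VC), 932 (FLOX) and 708 CPM (WT), against 313 (VC), 276 (FLOX) and 278 CPM (WT) (log2 fold change 1.70, SE 0.10, adjusted p = 1.6e-05). Vcam1, the adhesion molecule bound by VLA-4 on leukocytes, stood at 2793 (VC), 3061 (FLOX) and 1661 CPM (WT), against 978 (VC), 947 (FLOX) and 325 CPM (WT) (log2 fold change 1.90, SE 0.15, adjusted p = 5.8e-05). Icam1, the ligand of leukocyte beta-2 integrins, stood at 259 (VC), 193 (FLOX) and 205 CPM (WT), against 100.3 (VC), 68.1 (FLOX) and 53.0 CPM (WT) (log2 fold change 1.65, SE 0.12, adjusted p = 4.5e-05). Every double-positive library exceeded every library of the other class for these 3 genes, and Vcam1 was lowest in WT in both classes. Bgn (1.45), Csrp2, Il1r1, Lrg1 and Slco2a1 also rose. Ackr3, an atypical receptor of Cxcl12 (-3.61), Tmem252 (-3.27), Emp1 (-2.38) and Aplnr, the apelin receptor (-1.28), fell. Ephb4, the venous receptor of Efnb2, was at 134 (VC), 102 (FLOX) and 105 CPM (WT), against 138 (VC), 121 (FLOX) and 149 CPM (WT) (adjusted p = 0.16).

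Genes of leukocyte passage were split. Of 21 tested, 3 rose and 9 fell, with a median of -0.85, and the 3 were Vcam1, Icam1 and Madcam1. Madcam1, the addressin of gut and splenic venules, had 15 (VC), 65 (FLOX) and 86 UMIs (WT) in double-positive barcodes, against 0 (VC), 1 (FLOX) and 0 UMIs (WT) with neither gene. That is 2.77 (VC), 4.25 (FLOX) and 4.11 CPM (WT) in members, a low level, and the fitted fold rests on nearly empty comparison sums and is not given. Cd34 (-4.40), Jam2, a junctional adhesion molecule (-3.82), and Podxl, a sialomucin like Cd34 (-3.23), fell, with Cd34 at 18.1 (VC), 17.1 (FLOX) and 11.7 CPM (WT), against 311 (VC), 365 (FLOX) and 323 CPM (WT). Of 12 tested genes of selectin ligand and other glycan synthesis, the sulfotransferases Chst1 (1.92, not called without FLOX) and Chst2 (1.54) and the sialyltransferase St6gal1 (1.65) rose and the core fucosyltransferase Fut8 (-1.33) fell. Weibel-Palade bodies, the granules that store P-selectin with Vwf, had 3 of 21 genes higher and 1 lower, with Angpt2, the Tie2 ligand kept in them, at 17.2 (VC), 14.4 (FLOX) and 18.3 CPM (WT), against 6.86 (VC), 6.46 (FLOX) and 5.77 CPM (WT).

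NF-kB genes, known to drive E-selectin, Vcam1 and Icam1 in inflamed vessels, rose in 7 of 19 tested and fell in 1, with a median of 0.34. Nfkbiz, an atypical I-kappa-B, stood at 151 (VC), 90.2 (FLOX) and 97.3 CPM (WT), against 71.3 (VC), 58.4 (FLOX) and 41.5 CPM (WT) (log2 fold change 1.01, SE 0.12, adjusted p = 0.00048). Cebpd (0.89), Birc3 (0.87) and Bcl3 (0.85) also rose, and Tnfaip3, the feedback inhibitor, fell (-0.60). Of 14 coagulation genes 5 rose and 5 fell. Those that rose were Tfpi, the tissue factor inhibitor (1.38), F8, clotting factor VIII (1.18), Thbd, thrombomodulin (1.16), Plau and Procr, and Plat, tissue plasminogen activator, fell most (-3.99). Tfpi stood at 3371 (VC), 2954 (FLOX) and 3976 CPM (WT), against 1216 (VC), 1135 (FLOX) and 1806 CPM (WT). Anticoagulant Thbd stood at 1126 (VC), 948 (FLOX) and 968 CPM (WT), against 447 (VC), 471 (FLOX) and 486 CPM (WT), so both lay above the other class in each library.

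Most vasoactive receptors fell, and matrix genes were split. Of 9 tested vasoactive receptors 7 fell, among them Ramp3, a partner of the adrenomedullin receptor (-4.59), and Ednrb, an endothelin receptor (-4.25). Ednrb stood at 4.06 (VC), 4.83 (FLOX) and 8.69 CPM (WT), against 136 (VC), 117 (FLOX) and 115 CPM (WT). Of 28 basement membrane and matrix genes 4 rose, 13 fell and 11 were not called, with a median of -0.81. RNA of mural cells and fibroblasts, which make matrix, moved with these lists: 6 mural markers summed to 3.51 (VC), 4.05 (FLOX) and 2.91 CPM (WT) in double-positive barcodes, against 111 (VC), 64.2 (FLOX) and 5.25 CPM (WT) with neither gene, and 3 of 5 tested fell. The 4 fibroblast markers summed to 39.7 (VC), 8.36 (FLOX) and 0.859 CPM (WT), against 73.9 (VC), 96.5 (FLOX) and 2.1 CPM (WT). The 5 stromal markers summed to 149 (VC), 127 (FLOX) and 140.4 CPM (WT), against 347 (VC), 443 (FLOX) and 177 CPM (WT), but did not move together. Of these 5 genes 2 rose and 1 fell. Kitl, given under the other observations, made up most of the stromal sum with neither gene. The part of mural, fibroblast and stromal cells was not tested. Mmrn1, a multimerin, rose (1.67) and Fn1, fibronectin (-4.97), Sparcl1 (-4.70) and Col4a1, a collagen of basement membranes (-1.73), fell. Col4a1 was even across libraries, at 375 (VC), 381 (FLOX) and 382 CPM (WT), against 1220.3 (VC), 1314 (FLOX) and 1381 CPM (WT). Klf2, a factor induced by flow, stood at 296 (VC), 170.4 (FLOX) and 198 CPM (WT), against 1353 (VC), 968 (FLOX) and 388 CPM (WT) (log2 fold change -1.85, SE 0.25, adjusted p = 0.001), and was 1 of 3 that fell among 12 shear-stress and Kruppel-like genes. Of 16 pan-endothelial genes 1 rose and 2 fell, with a median of -0.14.

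All tested class II genes and some interferon genes fell, and the rule bears on both lists because it bars Cxcl9, an interferon-induced chemokine, from members only. The 7 class II genes had a median log2 fold change of -3.06, and Cd74, the invariant chain, stood at 45.4 (VC), 35.1 (FLOX) and 4.11 CPM (WT), against 710.2 (VC), 70.7 (FLOX) and 36.7 CPM (WT). Of 30 interferon genes 1 rose, 9 fell and 20 were not called. With the comparison barcodes held to the same limits on Cxcl9 and on Mki67 and Top2a, 11 interferon genes fell and 2 rose, 7 class II genes fell, and of 11 cell-cycle genes tested 2 fell, against 10 of 17 without those limits. The whole contrast then had 770 genes higher and 928 lower.

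**Figure D3:**
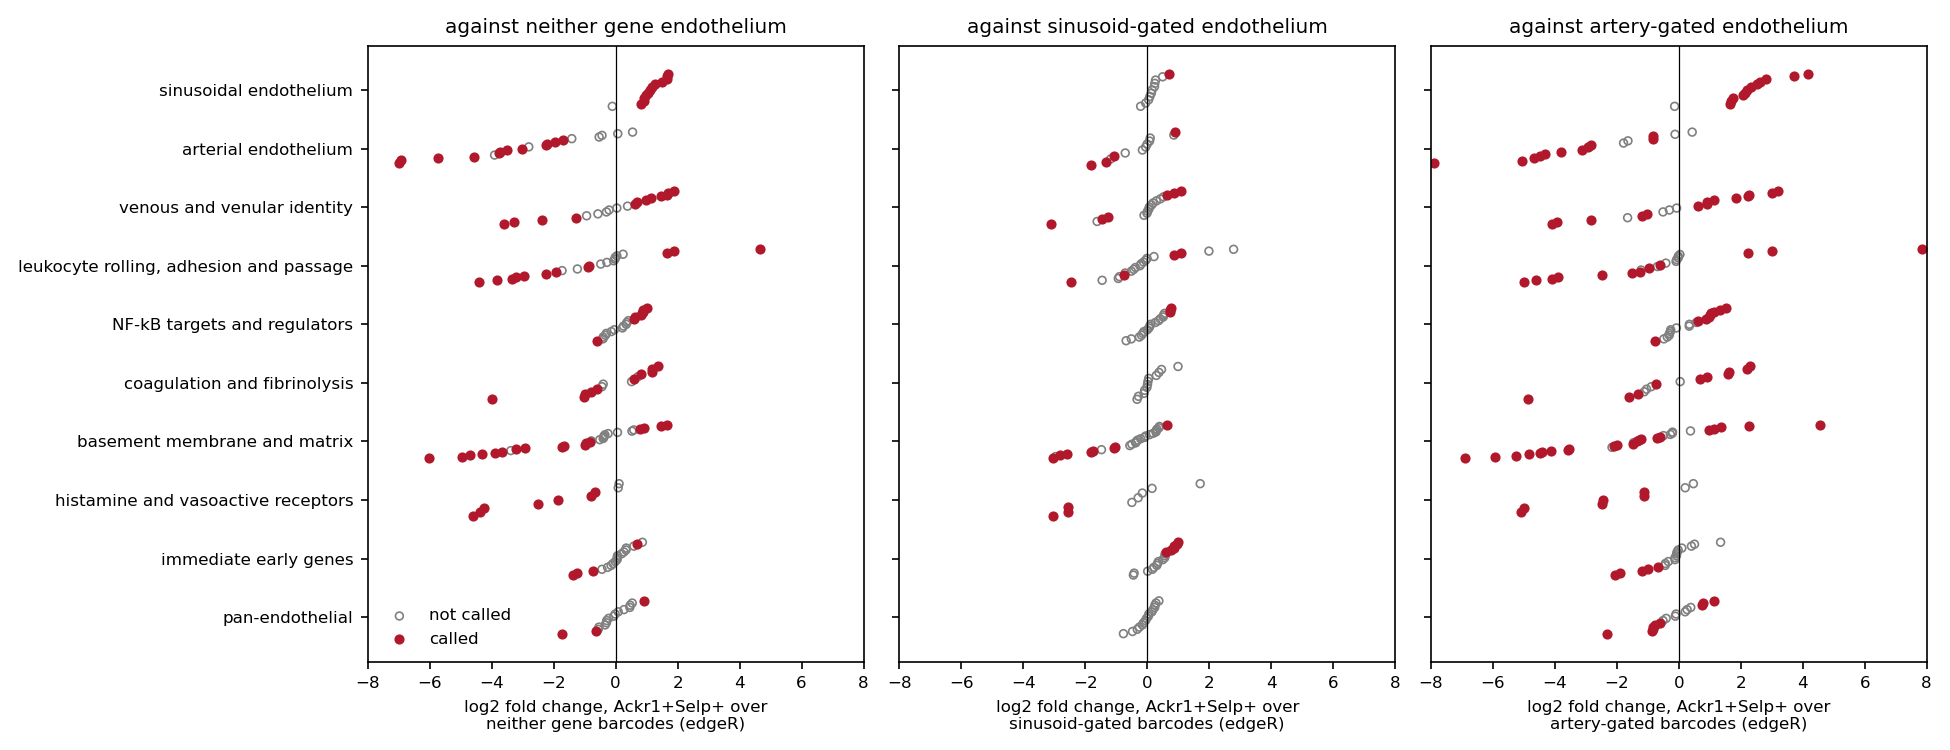
Each point is 1 tested gene of a fixed list (y axis), placed by its log2 fold change (x axis) in double-positive barcodes over barcodes with neither gene, over sinusoid-gated barcodes and over artery-gated barcodes (3 panels); filled points were called. Sinusoidal genes stood right of 0 and arterial genes left of it in the left and right panels, with 12 and 0 higher in each, while most genes stood near 0 against the sinusoid gate. In the right panel the gate itself selects barcodes rich in arterial genes.

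Against sinusoid-gated barcodes, the nearest of the classes compared, few genes differed. Of 10849 tested, 103 rose (0.949%) and 161 fell (1.48%), together 2.43%. The sinusoid gate is small, its barcodes had medians of 6579.5 (VC), 4629 (FLOX) and 6384 UMIs (WT), and the counts moved with the libraries: without VC 160 rose and 281 fell, without FLOX 40 and 53, and without WT 29 and 36. With sinusoid-gated barcodes drawn to the members' depth, 116 rose and 86 fell, and only 53 of the 103 and 54 of the 161 genes were called again. That draw kept only 10 (VC), 25 (FLOX) and 5 sinusoid-gated barcodes (WT), so it cannot tell depth from the loss of barcodes. Double-positive sums are shared by this contrast, the one above and the arterial one below.

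Of 16 pan-endothelial genes 0 were called by edgeR and 0 by DESeq2, although 7 had an unadjusted p under 0.05. Of 11 sinusoidal genes Il6st was called (0.70), the list's median was 0.16, and in the small draw at matched depth 4 of the 11 rose. Mrc1 stood at 1569.9 (VC), 1641 (FLOX) and 1774 CPM (WT), against 1495 (VC), 1436 (FLOX) and 1602 CPM (WT), and Stab1 at 756 (VC), 674 (FLOX) and 598 CPM (WT), against 799 (VC), 708 (FLOX) and 590.5 CPM (WT), both not called. Fgf23 again rose, at 147 (VC), 66.1 (FLOX) and 39.4 CPM (WT), against 23.4 (VC), 22.1 (FLOX) and 4.71 CPM (WT) (log2 fold change 2.20, SE 0.24, adjusted p = 5.5e-05). Aqp1, which passes water across capillary and sinusoidal walls, stood at 1142 (VC), 935 (FLOX) and 835 CPM (WT), against 398 (VC), 309 (FLOX) and 316 CPM (WT) (log2 fold change 1.5, SE 0.09, adjusted p = 1.3e-07). Adgrg6 stood at 648 (VC), 529 (FLOX) and 613 CPM (WT), against 367 (VC), 231 (FLOX) and 219.9 CPM (WT) (log2 fold change 1.16, SE 0.12, adjusted p = 3.0e-05). For Aqp1 and Adgrg6 the classes did not overlap. Icam1 (1.08) and Vcam1 (0.88) rose here too, with Icam1 at 159 (VC), 96.2 (FLOX) and 69.1 CPM (WT) in sinusoid-gated barcodes (adjusted p = 0.00044). Nr2f2 stood at 1106 (VC), 932 (FLOX) and 708 CPM (WT), against 734 (VC), 646 (FLOX) and 509 CPM (WT), a log2 difference of 0.53 that was under the fold required. Further genes that rose were Mum1l1 (1.37), Lhfpl2 (1.27), the adhesion molecule Cadm3 (1.19), Socs3, an inhibitor of cytokine signalling (1.12), Rasd1 (1.10), Pcdh7 (1.08) and the arginine transporter Slc7a2 (1.08). Vcam1 and Slc7a2 lost their calls without FLOX and without WT, as did Rasd1, and Pcdh7 without FLOX. Retnlg, a neutrophil gene, headed the list (2.62) with 140.3 (VC), 177 (FLOX) and 6.97 CPM (WT), against 2.60 (VC), 40.3 (FLOX) and 3.14 CPM (WT).

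Immediate early genes, which respond within minutes to many stimuli and to tissue digestion, rose in 6 of 18 tested genes, with a median of 0.53 against 0.00 over all genes. Fos stood at 963 (VC), 671 (FLOX) and 1189 CPM (WT), against 422 (VC), 464 (FLOX) and 493 CPM (WT) (log2 fold change 0.99, SE 0.11, adjusted p = 9.8e-05). Junb (0.97), Egr1 (0.87), Zfp36 (0.87), Ier3 (0.78) and Dusp1 (0.62) rose as well, and the part of cell handling in this was not tested. Egr1 lost its call without VC and without FLOX, and Junb, Zfp36 and Ier3 without WT, where 2 of the 18 rose. In the small draw at matched depth 3 of the 18 rose. Against all barcodes with neither gene 1 of the 18 rose and 3 fell.

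Genes lower than in sinusoid-gated barcodes came from several lists. Of 12 arterial genes 3 fell and 1 rose, and Ly6c1, 1 of the 3, stood at 121 (VC), 78.8 (FLOX) and 59.9 CPM (WT), against 289 (VC), 286 (FLOX) and 287 CPM (WT) (log2 fold change -1.82, SE 0.15, adjusted p = 2.9e-06), and was even across sinusoid-gated libraries. Col4a1 stood at 674 (VC), 869 (FLOX) and 846 CPM (WT) in sinusoid-gated barcodes (log2 fold change -1.07, SE 0.09, adjusted p = 3.4e-06), and 7 of 25 matrix genes fell, Sparcl1 most (-3.05). Of 10 capillary genes Kit (-1.72), Rgcc (-0.77) and Gpihbp1 (-0.77) fell and Aqp1 rose, with a median of -0.09. Cd34 (-2.47) and Aplnr (-1.45) fell, and Gpihbp1 stood at 306 (VC), 386 (FLOX) and 421 CPM (WT), against 518 (VC), 625 (FLOX) and 754 CPM (WT). Of 16 cell-cycle genes 7 fell, and the sinusoid gate admits dividing cells. All 5 tested class II genes and 8 of 30 interferon genes fell, and Cd74 stood at 945 (VC), 44.2 (FLOX) and 14.1 CPM (WT) in sinusoid-gated barcodes, so VC held most of it. Without VC 1 of the 30 interferon genes fell and 1 rose, and Cd74 lost its call without VC and without WT. Cd34 lost its call without FLOX.

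Artery-gated barcodes were the farthest of the classes compared. Of 11425 genes, 1194 rose (10.5%) and 1187 fell (10.4%). Cxadr stood at 384 (VC), 388 (FLOX) and 563 CPM (WT), against 4.19 (VC), 2.55 (FLOX) and 4.74 CPM (WT) (log2 fold change 6.96, SE 0.20, adjusted p = 7.0e-08). Adgrg6 stood at 648 (VC), 529 (FLOX) and 613 CPM (WT), against 3.14 (VC), 7.02 (FLOX) and 9.47 CPM (WT) (log2 fold change 6.58, SE 0.23, adjusted p = 1.4e-07). For both receptors every double-positive library lay far above every artery-gated one. The semaphorin Sema3a (4.85), with 684 (VC), 541 (FLOX) and 481 CPM (WT), against 24.1 (VC), 10.8 (FLOX) and 33.2 CPM (WT), was also among the 12 highest. Of 13 sinusoidal genes 12 rose, with a median of 2.19, and of 16 arterial genes 11 fell. The 6 arterial genes of the gate were not tested. A gate on them also picks the arterial genes that travel with them, so the fall of that list is description only. Stab2 stood at 126 (VC), 85.5 (FLOX) and 188 CPM (WT) in artery-gated barcodes (log2 fold change 3.71, SE 0.17, adjusted p = 6.4e-07), and Nr2f2 at 112 (VC), 88.7 (FLOX) and 112 CPM (WT) (log2 fold change 3.19, SE 0.16, adjusted p = 1.2e-06). Stmn2 (-7.88), the cadherin Cdh13 (-7.00), Ptprr (-6.93) and Tcf15 (-6.92) fell most. Neutrophil RNA was high in artery-gated barcodes: the 6 marker genes summed to 22227 (VC), 27367 (FLOX) and 319 CPM (WT) there, and its part in the calls was not tested.

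The 2 rule genes taken singly were also compared. Barcodes with Ackr1 and no Selp numbered 33 (VC), 117 (FLOX) and 58 (WT), and those with Selp and no Ackr1 numbered 51 (VC), 374 (FLOX) and 436 (WT). Of 7622 genes 3 rose in Ackr1-only barcodes (0.0394%) and 32 fell (0.42%), together 0.459%. Ackr1-only barcodes were shallower, with medians of 7385 (VC), 6118 (FLOX) and 8625 UMIs (WT), against 9092 (VC), 7262.5 (FLOX) and 9582.5 UMIs (WT) in Selp-only ones. Transcripts of blood cells were among the calls, with the haemoglobin gene Hbb-bs higher and S100a8, S100a9 and Jchain lower, and the part of other cells in this contrast was not tested. Sele stood at 680.5 (VC), 848 (FLOX) and 680 CPM (WT) in Ackr1-only barcodes, against 778 (VC), 830 (FLOX) and 747 CPM (WT) in Selp-only ones. Of 15 venous and 13 sinusoidal genes tested 0 were called by edgeR, and 4 and 1 had an unadjusted p under 0.05. Ubd, a ubiquitin-like protein induced by interferon, stood at 1177 (VC), 898 (FLOX) and 574 CPM (WT) in Ackr1-only barcodes, against 579 (VC), 645 (FLOX) and 394 CPM (WT) in Selp-only barcodes (log2 fold change 0.69, SE 0.11, adjusted p = 0.0024). Slc6a6, the taurine transporter, stood at 60.0 (VC), 64.4 (FLOX) and 42.3 CPM (WT), against 462 (VC), 186 (FLOX) and 267 CPM (WT) (log2 fold change -2.19, SE 0.19, adjusted p = 2.6e-06). Of 12 arterial genes 3 fell, Sema3g (-1.81), Efnb2 (-1.44) and Ly6c1 (-0.87), and of 14 leukocyte passage genes Cd34 (-2.01) and Jam2 (-1.63) did, while of 10 capillary genes 0 were called by edgeR and 4 had an unadjusted p under 0.05. Cd34 stood at 16.0 (VC), 19.7 (FLOX) and 32.7 CPM (WT), against 162 (VC), 68.1 (FLOX) and 108 CPM (WT), so Selp-only barcodes carried more of it in each library. Without VC 8 genes rose and 52 fell, without FLOX 5 and 27, and without WT 4 and 41, and Ubd fell short of the fold required without VC.

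Members differed among themselves in several genes. Variance over mean was taken per library after thinning to 5000 UMIs, and the lowest of the 3 libraries is given; its median over 5836 genes was 1.03, about that of counting noise. Fabp4, a fatty-acid-binding protein, had 8.82, and the matrix proteases Adamts1 and Adamts5 had 4.51 and 4.39. Fos, Jun and Egr1 had 6.40, 5.72 and 3.43. Vcam1 had 4.28, Aqp1 4.11, Cfd 3.68, Sele 3.51 and Rgs4 3.21, so markers of the class were also unevenly spread within it. S100a8 and S100a9 varied as well, and they are neutrophil transcripts. The 10 highest members held 93.1% (VC), 54.4% (FLOX) and 33.5% (WT) of their UMIs.

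RNA of other cells was measured beside these results. The 6 neutrophil markers summed to 2623 (VC), 2971 (FLOX) and 361 CPM (WT) in double-positive barcodes, against 11373 (VC), 15197 (FLOX) and 748 CPM (WT) with neither gene. Erythroid markers summed to 80.7 (VC), 30.5 (FLOX) and 2141 CPM (WT) in members, and B-lineage markers to 279.7 (VC), 2914 (FLOX) and 147 CPM (WT). Erythroid RNA was thus highest in WT and B-lineage RNA in FLOX. Most of the UMIs lay in few barcodes: the 10 highest members held 70.3% of haemoglobin UMIs in WT and 81.1% of Ighm, Igkc and Jchain UMIs in FLOX. Most members carried some all the same, with a haemoglobin UMI in 80.7% of WT members. A UMI of Ighm, Igkc or Jchain was found in 98.9% of FLOX members. T and NK markers reached at most 1.05 CPM and the 6 platelet markers 26.3 CPM. Platelets carry P-selectin, and a UMI of a platelet marker was found in 15.6% (VC), 17.2% (FLOX) and 21.2% of members (WT). The part of other cells' RNA in the contrasts was not tested.

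The share of endothelium that was double-positive was 25.3% in VC (23.3 to 27.4), 40.0% in FLOX (38.4 to 41.7) and 47.4% in WT (45.6 to 49.1), with exact Clopper-Pearson intervals at 95% that cover counting error only. The limit on Cxcl9 set much of this order. It removed 424 of 881 otherwise qualifying barcodes in VC (48.1%), 43 of 1481 in FLOX (2.90%) and 101 of 1624 in WT (6.22%). Without it the shares were 48.4% (VC), 41.2% (FLOX) and 50.4% (WT). Endothelial barcodes with at least 10 Cxcl9 UMIs made up 52.9% in VC, 2.22% in FLOX and 4.84% in WT. Depth bears on the share too, and after thinning to 5000 UMIs it was 17.6% (VC), 24.5% (FLOX) and 23.1% (WT). Thinned and without the Cxcl9 limit it was 24.4% (VC), 24.6% (FLOX) and 23.4% (WT), with intervals that overlap. The thinned shares leave out barcodes with fewer than 5000 UMIs. The rule's limits on named genes were applied to the thinned counts, where 10 Cxcl9 UMIs is a looser limit. These are shares of 1634 (VC), 2748 (FLOX) and 2811 endothelial barcodes (WT), against 1793 (VC), 3510 (FLOX) and 3120 (WT) unthinned.

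**Figure D4:**
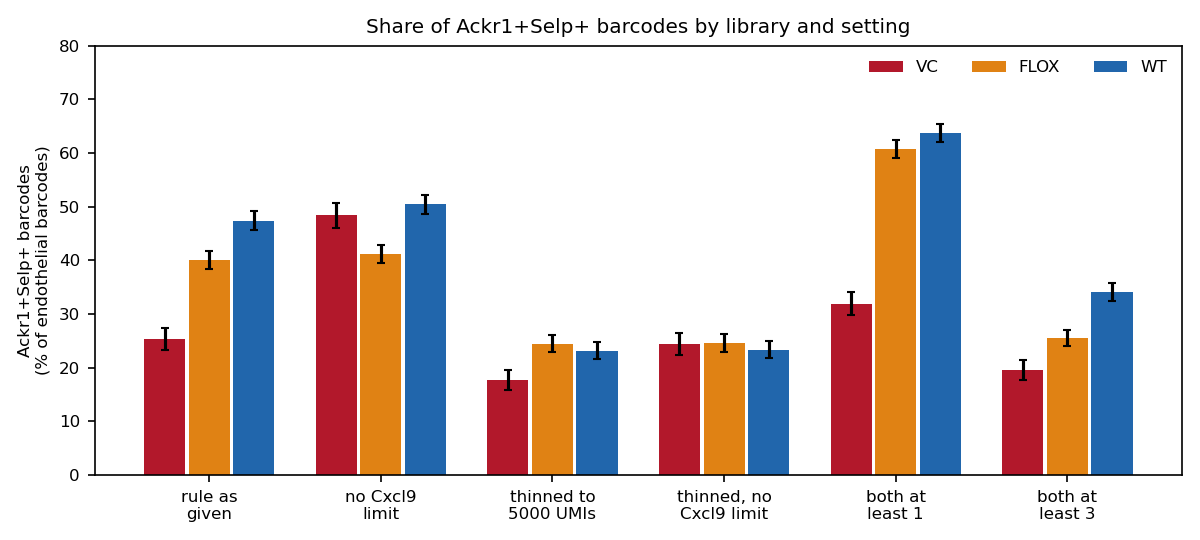
Bars give double-positive barcodes as a share of endothelial barcodes (percent, y axis from 0) for VC, FLOX and WT under 6 settings of the rule (x axis); error bars are exact Clopper-Pearson intervals at 95%. VC stood lowest under the rule as given, at 25.3%, and level with the others, at 24.4% beside 24.6% and 23.4%, once barcodes were thinned and the Cxcl9 limit was lifted. The thinned settings leave out barcodes with fewer than 5000 UMIs and apply the limits on named genes to thinned counts.

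Between genotypes few genes of the double-positive class passed a rule of size, and the limit on Cxcl9 bears on their number in VC. Vegfc, the gene floxed in VC and FLOX, had 5 (VC), 10 (FLOX) and 36 UMIs (WT) in members, or 0.923 (VC), 0.653 (FLOX) and 1.72 CPM (WT). That is too low to check the deletion. The rule took genes with at least 50 CPM on average that were at least 1.5-fold from both other libraries and farther than those lay from each other. Of 3415 genes 9 were higher in VC (0.264%) and 3 lower (0.0878%). The same rule with FLOX as the odd library gave 4 higher and 3 lower, and with WT 21 higher and 25 lower. Without the limit on Cxcl9, which removed barcodes mostly from VC, 50 genes were higher in VC and 3 lower. The 50 include Cxcl9 itself and genes such as Cd74 that reached the minimum of 50 CPM only through VC. The set of genes past the minimum changed when the limit was lifted, so the 50 are not a share of the 3415. Counts with FLOX or WT as the odd library were not made without the limit.

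Fgf23 stood at 147 CPM in VC (137 to 158), 66.1 CPM in FLOX (62.1 to 70.3) and 39.4 CPM in WT (36.7 to 42.2), with 95% Poisson intervals in parentheses. Socs2, a feedback inhibitor of cytokine receptors, stood at 247 CPM in VC (234 to 260.4), 142 CPM in FLOX (136 to 148) and 139.9 CPM in WT (135 to 145), and its relative Socs3 at 169 CPM in VC (158 to 180.1), 94.2 CPM in FLOX (89.4 to 99.2) and 101 CPM in WT (97.0 to 106). In VC these 3 genes stood above both other libraries with intervals apart, and the Fgf23 intervals of FLOX and WT did not overlap. Nfkbiz stood at 151 CPM in VC (141 to 162), 90.2 CPM in FLOX (85.5 to 95.1) and 97.3 CPM in WT (93.1 to 102). The others were Rasd1, a Ras-like GTPase with 75.3 (VC), 42.5 (FLOX) and 40.2 CPM (WT), the clock-related repressor Bhlhe40 with 107 (VC), 64.5 (FLOX) and 69.7 CPM (WT), Ly6c1 with 121 (VC), 78.8 (FLOX) and 59.9 CPM (WT), Fam102a with 95.3 (VC), 62.3 (FLOX) and 61.4 CPM (WT) and the matrix protein Emilin1 with 90.1 (VC), 59.9 (FLOX) and 46.5 CPM (WT). Lower in VC were Cfd, with 52.1 CPM in VC (46.2 to 58.5), 207 CPM in FLOX (200.0 to 214) and 171 CPM in WT (165 to 176), Palmd, with 57.2 (VC), 88.3 (FLOX) and 115 CPM (WT), and the immunoglobulin gene Iglc1, with 4.98 (VC), 489 (FLOX) and 72.8 CPM (WT), which belongs to B-lineage RNA. Of the 9 higher genes 4 stayed past the size without the Cxcl9 limit, namely Fgf23, Rasd1, Socs3 and Ly6c1, and 5 did not. Of the 3 lower genes Palmd did not, and Cfd did, with 114 (VC), 209 (FLOX) and 171 CPM (WT), so its VC level lay nearer the others.

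Of the marker genes, Ackr1, Rgs4 and Clca3a1 were highest in VC without reaching the size. With the Cxcl9 limit lifted Ackr1 stood at 527 (VC), 494 (FLOX) and 380 CPM (WT), so VC and FLOX lay nearer each other. Clca3a1 then stood at 1072 (VC), 862 (FLOX) and 655.5 CPM (WT). Interferon genes showed the limit's reach most plainly. Under the rule 0 of 13 measured interferon genes were past the size in VC, and without the limit 16 of 19 were. Over all genes measured under the rule, 9 of 3415 were higher in VC (0.264%). The 0 depends on the minimum of 50 CPM, which Gbp4 missed. The 16 depend on it too, because the measured genes differ between the settings. Without the limit Gbp4, Igtp, Gbp2, Irgm1 and Tap1 lay under 50 CPM in both FLOX and WT. They reached the minimum only through VC, so their place among the 16 was largely set by it. Gbp4, a guanylate-binding protein, stood at 407 (VC), 35.2 (FLOX) and 37.1 CPM (WT) without the limit, against 77.2 (VC), 31.7 (FLOX) and 33.6 CPM (WT) with it. Cxcl10, an interferon-induced chemokine, stood at 618 (VC), 59.3 (FLOX) and 22.1 CPM (WT) without it. Fgf23 and Socs3 were past the size in VC under both settings, and Nfkbiz, at 133 (VC), 92.6 (FLOX) and 97.7 CPM (WT) without the limit, was not.

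**Figure D5:**
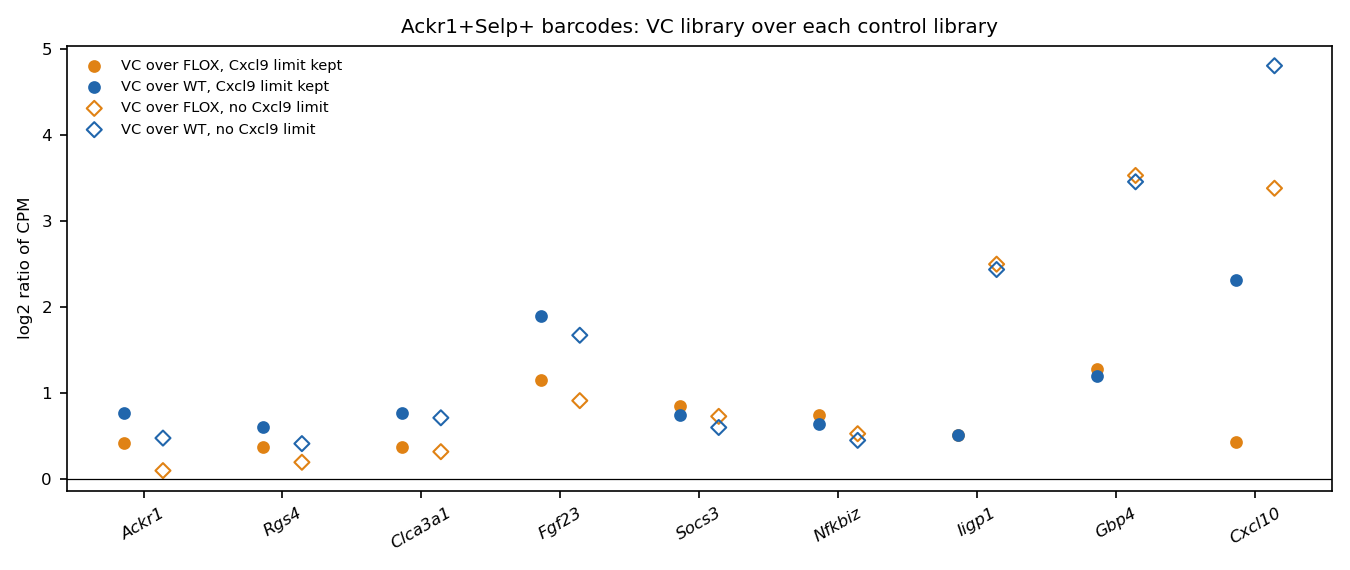
Points give the log2 ratio of CPM in double-positive barcodes of VC over FLOX (orange) and of VC over WT (blue) for 9 genes (x axis), with the Cxcl9 limit of the rule (filled circles) and without it (open diamonds); each library is 1 sample. Iigp1, Gbp4 and Cxcl10 moved far from 0 once the limit was lifted, while Fgf23, Socs3 and Nfkbiz lay above 0 in both settings.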

How the data were processed

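Single-cell RNA was measured in 3 libraries, 1 per genotype, and the deposited matrices hold raw UMI counts per gene and barcode, per the file headers. The genome build was mm10, and the tools listed are Seurat 3.1 and Cell Ranger 2.1.1, per the submitters' processing notes, but the headers of the matrices state 3.1.0 as the software version, and which of these made the counts is uncertain. Barcodes were classed by the rule in the opening, and the members and gene lists were chosen with earlier results of these data known. Sums of UMIs over the barcodes of a class in a library were tested in R 4.3.3 with edgeR 4.0.16 (TMM, filterByExpr, quasi-likelihood, library as a block, Benjamini-Hochberg). Stromal barcodes had at least 50 Cxcl12 UMIs, at least 1 Adipoq UMI and no Cdh5. DESeq2 1.42.0 was an alternative, and other steps used Python 3.11.15. On simulated counts of the first contrast the test recovered 85 of 100 genes changed 2-fold and 100 of 100 changed 4-fold, with 1 false call among 11138 unchanged genes. The simulated libraries shared the same level of each gene, apart from the set changes, and a fixed spread. The rate of false calls in the real libraries, which differ in genotype, was therefore not measured. No doublet caller was run, and 1 alternative left out barcodes with a platelet-marker UMI and the deepest 5% of each library.

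Genes were named by rule: per contrast the 12 called genes with the largest and the 12 with the smallest fold change at 50 CPM or more in the higher class, and up to 4 per list. Mitochondrial, ribosomal, immunoglobulin, haemoglobin, sex-linked and predicted genes were left out of the first 2 sets. Further genes, among them Nr2f2, Icam1, Mrc1, Stab1, Gpr182, Bgn, Ephb4, Thbd, Col4a1, Klf2 and Cxcl10, were picked with their values in view. Some genes that the rule names are not reported here. Nothing in the labels says how many animals stand behind a library. With library as a block, p-values rest on how evenly a class difference repeats across these 3 libraries, which differ in genotype. Each interval and floor covers counting error only.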

Additional observations from a re-analysis of the deposited data

Results flagged for a closer look

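Serpina3f, a serine protease inhibitor induced by interferon and cytokines, moved in opposite directions in the libraries. In VC it stood at 93.6 CPM in double-positive barcodes, against 287 CPM in barcodes with neither gene. In FLOX it stood at 82.8 CPM, against 25.2 CPM, and in WT at 61.4 CPM, against 18.9 CPM. The fitted log2 fold change over the 3 libraries was 0.416, with an adjusted p of 0.673 in edgeR's quasi-likelihood test. Each genotype was 1 library, so the difference between libraries was not tested. The limit on Cxcl9 applied to double-positive barcodes only, and Cxcl9 stood at 3190 CPM (VC), 89.7 CPM (FLOX) and 192 CPM (WT) in barcodes with neither gene.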

How the results depend on the processing

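Against barcodes with neither gene and against artery-gated barcodes, the counts of called genes stayed within 1.5 times under every alternative run, and no result turned its direction. Without a library block 751 genes rose and 981 fell against barcodes with neither gene. Apart from that fit, the class contrasts kept the library as a block, which pairs the classes within each library. Between genotypes no paired analysis was possible, because each group is 1 library and the labels pair no samples. Against sinusoid-gated barcodes, leaving out 1 library gave 29 to 160 genes higher and 36 to 281 lower, no filter on low counts gave 185 higher, DESeq2 57 higher, and matched depth, with few barcodes drawn, 86 lower. Between Ackr1-only and Selp-only barcodes, leaving out 1 library gave 4 to 8 higher and 27 to 52 lower. For VC against both other libraries, 50 genes, Cxcl9 among them, were higher without the Cxcl9 limit, 1 at 2-fold and 20 at a minimum of 20 CPM. Lower were 5 with median-of-ratios scaling and 12 at 20 CPM. The Cxcl9 limit and the minimum also change which genes are measured, so these counts are not shares of the same set. The share of endothelium was 31.9% (VC), 60.7% (FLOX) and 63.7% (WT) with at least 1 UMI of each gene, and 19.6% (VC), 25.5% (FLOX) and 34.1% (WT) with at least 3. Without the Cxcl9 limit it was 48.4% in VC and 50.4% in WT, and at most 5% mitochondrial UMIs gave 49.7% in WT. Thinned to 5000 UMIs it was 17.6% (VC), 24.5% (FLOX) and 23.1% (WT), and thinned with no Cxcl9 limit, a setting chosen after seeing the data, 24.6% in FLOX and 23.4% in WT. The cause of these shifts was not tested.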

Other observations

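Further lists describe double-positive endothelium against barcodes with neither gene. Of 21 TGF-beta and BMP genes 7 rose and 6 fell, with a median log2 fold change of -0.05, against -0.01 over all genes. Bmp4, a bone morphogenetic protein, stood at 46.5 (VC), 44.4 (FLOX) and 49.3 CPM (WT) in double-positive barcodes, against 18.0 (VC), 8.07 (FLOX) and 7.35 CPM (WT) with neither gene. Tgfb2, a TGF-beta ligand, fell (-4.95). Of 8 prostanoid and purine genes 4 rose and 1 fell, among them Ptges, a prostaglandin E synthase (1.81), and Ptgs1, cyclooxygenase 1 (1.01). Of 15 Notch genes 2 rose and 5 fell. Of 17 scavenging and lipid-uptake genes 3 rose, led by Lipg, endothelial lipase (1.66), and 8 fell, led by Cav1, caveolin 1 (-4.40). Lipg stood at 517 (VC), 450 (FLOX) and 363 CPM (WT), against 156 (VC), 143 (FLOX) and 135 CPM (WT), so the classes did not overlap.

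Niche factors that endothelium gives to blood stem cells were also measured. Kitl, stem cell factor, stood at 7.75 (VC), 10.3 (FLOX) and 6.02 CPM (WT) in double-positive barcodes, against 285 (VC), 364 (FLOX) and 115 CPM (WT) with neither gene (log2 fold change -4.80 in edgeR). Lepr, the leptin receptor, which marks marrow stroma and is also found on sinusoids, stood at 44.7 (VC), 42.1 (FLOX) and 58.9 CPM (WT), against 13.2 (VC), 18.7 (FLOX) and 14.2 CPM (WT), and was called (1.66).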
